A study of Mus musculus with 13 samples.

Results

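The genes described here are 9 genes of central nervous system myelin, Mobp, Mbp, Mog, Mag, Cnp, Ugt8a, Mal, Cldn11 and Opalin, followed through 13 olfactory bulb RNA-seq libraries from mice exposed or not exposed to PM2.5, fine airborne particulate matter. They were taken from the deposited table by gene symbol. All 9 symbols were found among 34745 genes, and all 9 were among the 17467 genes that passed the filter on low counts.

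All mice were wild-type C57BL/6 animals aged 7 to 8 weeks. The libraries form 2 sets, named 1st and 2nd in the sample titles without further explanation. The 1st set holds 4 untreated controls and 3 mice given PM2.5 at a labelled 3 mg/kg/3 day, here the low dose. The 2nd set holds 3 untreated controls and 3 mice given PM2.5 at a labelled 10 mg/kg/3 day, here the high dose. Each exposed group was set against the 3 or 4 controls of the same set, and dose and set cannot be told apart. The sources used here give neither the route of exposure nor the reading of "/3 day". Nothing states that replicates are separate litters or exposures, and p-values reflect only sample-to-sample spread, which may be technical.

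Myelin is the layered membrane that oligodendrocytes wrap around axons, and it speeds the conduction of impulses. In the olfactory bulb it is found mainly around the axons of output neurons in the deeper layers and along the tracts that leave the bulb. Mature oligodendrocytes switch on its protein and lipid genes as a programme under the transcription factors Sox10 and Myrf. In bulk tissue, fewer oligodendrocytes and less RNA per oligodendrocyte cannot be told apart.

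Total counts per library were 13032834 to 14665696 in the 1st set and 15387870 to 26989267 in the 2nd. All 10 olfactory bulb markers examined were detected, at a summed 2643 to 3452 CPM, the count scaled to a common library size. The series describes the mice as male. Libraries of the 1st set had 2245 to 2712 CPM of Xist, the RNA of the inactive X chromosome, and 0 to 0.210 CPM over 4 Y-linked genes, which goes against that description. Libraries of the 2nd set had 0.0992 to 0.555 CPM of Xist and 177 to 230 CPM over the Y-linked genes. Every comparison of exposed with control mice lies within 1 set, and the comparison of the sets' controls carries this difference with it.

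The promoters of the myelin genes are shown first, as background to the programme named above. The levels of these genes varied together between libraries, as described further on. Whether the shared programme has a part in that was not tested. RefSeq promoters on GRCm38.p6 span 250 bases before to 50 bases after each start, and 8 of the 9 genes matched an entry. Mbp was not matched. They were searched on both strands for ACAAAG and ACAATG, core letters of the Sox group motif, and for CTGGCAC, letters of the Myrf motif. The 8 genes have 10 entries, 3 of them for Mag. CTGGCAC was present in 4 of the 10 entries, from Cnp, Mag and Opalin, and in 5.01% of all 32851 promoters. ACAAAG was present in 5 of the 10, namely those 4 and that of Mobp, and in 18.7% of all promoters. ACAATG was present in 0 of the 10 and in 12.6% of all promoters. Of the 3 Mag entries, the first and second overlap and share their matches, and the third held no match. A match is a run of letters and not a measured binding site. For each of the 3 genes with both motifs, 1 promoter is given from 5′ to 3′ on the strand of the gene, with motifs in capitals, as CTTTGT or GTGCCAG where the match lies on the opposite strand. Ugt8a is given beside them because its values stand out below. Neither motif was found in its promoter, and the same was true of Mal, Cldn11 and Mog. The windows are chr7:30914814-30915113 for Mag (minus strand, the first of its 3 entries), chr11:100574689-100574988 for Cnp (plus strand), chr19:41077064-41077363 for Opalin (minus strand) and chr3:125938603-125938902 for Ugt8a (minus strand).
Mag: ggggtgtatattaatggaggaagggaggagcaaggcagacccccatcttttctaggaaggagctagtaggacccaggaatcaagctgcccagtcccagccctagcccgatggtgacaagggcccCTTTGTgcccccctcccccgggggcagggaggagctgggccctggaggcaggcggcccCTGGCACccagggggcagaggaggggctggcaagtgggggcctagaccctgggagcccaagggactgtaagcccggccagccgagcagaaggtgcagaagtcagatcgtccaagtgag
Cnp: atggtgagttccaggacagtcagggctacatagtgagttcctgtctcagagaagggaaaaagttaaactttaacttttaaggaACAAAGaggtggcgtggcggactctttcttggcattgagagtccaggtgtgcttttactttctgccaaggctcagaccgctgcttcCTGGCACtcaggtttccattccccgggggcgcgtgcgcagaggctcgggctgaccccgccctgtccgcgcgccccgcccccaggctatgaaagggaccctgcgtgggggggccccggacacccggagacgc
Opalin: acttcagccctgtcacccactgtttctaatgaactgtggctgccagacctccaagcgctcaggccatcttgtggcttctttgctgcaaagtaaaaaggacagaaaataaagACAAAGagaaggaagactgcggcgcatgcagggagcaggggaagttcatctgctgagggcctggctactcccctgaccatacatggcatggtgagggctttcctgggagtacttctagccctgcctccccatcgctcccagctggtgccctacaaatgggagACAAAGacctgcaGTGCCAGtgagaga
Ugt8a: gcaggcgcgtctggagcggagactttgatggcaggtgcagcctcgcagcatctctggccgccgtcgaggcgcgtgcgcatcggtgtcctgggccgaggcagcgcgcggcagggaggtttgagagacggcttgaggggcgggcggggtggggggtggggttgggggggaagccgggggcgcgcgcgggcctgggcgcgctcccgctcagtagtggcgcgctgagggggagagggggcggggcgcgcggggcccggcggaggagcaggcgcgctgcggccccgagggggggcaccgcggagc

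The Myrf letters began 68 bases before the start in Mag, 81 bases before it in Cnp and at base 37 of the transcript in Opalin, each given for the first base of the match. Mobp, with no CTGGCAC, held 6 matches to ACAAAG between 243 and 120 bases before its start.

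At neither dose did a myelin gene pass the test (edgeR quasi-likelihood test, Benjamini-Hochberg adjusted p under 0.05 over all 17467 genes). At the low dose all 9 fitted log2 fold changes were negative, with a median of -0.22, or 85.8% of the control level, while the median over all genes was 0.00 and 49.0% of all genes were negative. At the high dose 4 were negative and 5 positive, with a median of 0.01 against -0.01 over all genes, of which 52.8% were negative. The count of 0 of 9 called stood beside 0% of all genes called in low-dose mice and 0.641% in high-dose mice. Ugt8a, the enzyme that makes galactosylceramide, had the smallest p of the 9 at both doses. Its fitted level was 72.0% of control in low-dose mice and 74.0% in high-dose mice. The levels of these genes vary together between libraries, so 9 negative signs are not 9 independent observations.

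**Figure D1:**
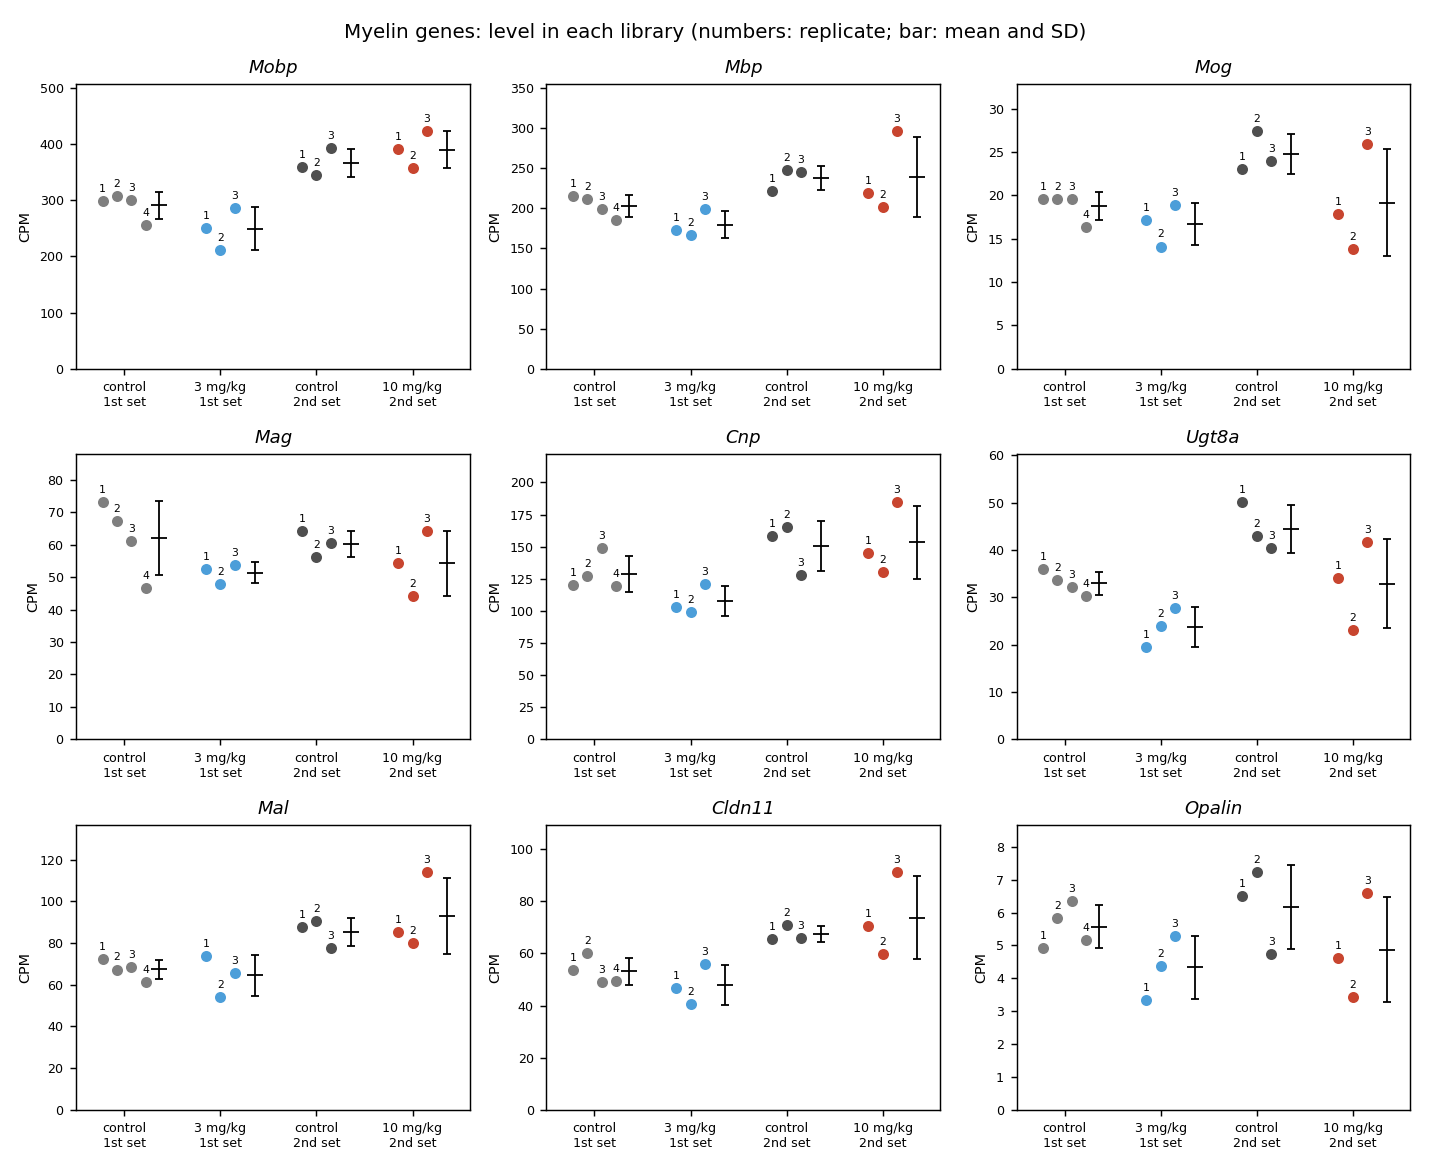
Level of each myelin gene in each library, in CPM on a linear axis from 0, with 1 panel per gene. Points are libraries marked by replicate number and bars are the group mean and SD. Ugt8a in the low-dose mice lies below all 4 controls of its set, and high-dose replicate 3 is the highest of its group for all 9 genes.

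Deposited FPKM values, which divide by gene length, give the order of levels among the genes. Over the 7 controls the mean was 48.1 ± 6.10 FPKM (SD, n = 7) for Mobp and 31.6 ± 3.96 for Cldn11. Cnp at 24.9 ± 3.03 and Mal at 23.9 ± 2.94 FPKM followed. Their ranges overlapped, and Cnp was the higher in 5 of 7 libraries. Mbp came next at 13.5 ± 1.15 FPKM, Mog at 11.8 ± 1.75 and Mag at 9.43 ± 1.35. The lowest were Ugt8a at 4.53 ± 0.767 and Opalin at 3.17 ± 0.455 FPKM. Ranges did not overlap between Mobp and Cldn11, between Mal and Mbp, or between Mag and Ugt8a, whereas the other 5 neighbouring pairs overlapped. Compared within each library, Mbp was above Mog and Ugt8a above Opalin in 7 of 7. Cldn11 was above Cnp, and Mog above Mag, in 6 of 7. This order rests on the lengths the authors used. The length implied by counts and FPKM was 16.1 kb for Mbp, against 8.47 kb of joined exons in GENCODE M21. The 2 lengths were 8.36 and 4.54 kb for Ugt8a, 6.51 and 4.07 kb for Mag, 5.54 and 3.64 kb for Cnp, and 1.84 and 2.95 kb for Opalin, while both were 1.87 kb for Cldn11. Per kb of joined exons, Cnp at 37.9 ± 5.21 CPM stood above Cldn11 at 31.7 ± 4.64, and Mag at 15.1 ± 2.08 above Mog at 12.5 ± 2.16 (SD, n = 7). The other genes kept their places. Mal at 27.0 ± 3.92 and Mbp at 25.7 ± 2.68 CPM, however, lay close together on this scale (SD, n = 7). Their separation by FPKM thus rests on the lengths used.

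The first group is formed by proteins of the compact membrane layers. Mbp, which holds the inner faces of the membrane together, was at 215, 211, 199 and 185 CPM in the controls of the 1st set and at 173, 167 and 199 CPM at the low dose. In the 2nd set it was at 221, 247 and 245 CPM in the controls and at 219, 202 and 296 CPM at the high dose. The groups overlapped in both sets. High-dose replicate 3 lay above every control and the other 2 high-dose libraries below every control. The log2 fold changes at the low and high dose were -0.17 (SE 0.12) and 0.01 (SE 0.12), with edgeR adjusted p of 1 and 0.996. In the fit with no low-count filter, among others, the high-dose sign of Mbp turned.

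Mobp, a small basic protein of compact myelin on chromosome 9 (120149742 to 120181484), had the highest level of the 9 by either scale. Controls of the 1st set stood at 299, 307, 301 and 256 CPM and low-dose mice at 250, 212 and 287 CPM. In the 2nd set controls stood at 360, 345 and 393 CPM and high-dose mice at 391, 357 and 423 CPM. In the low-dose group 2 of 3 libraries lay below every control, and high-dose replicate 3 exceeded every control. The low-dose log2 fold change of -0.22 (SE 0.10, 95% interval -0.44 to 0.00) had an unadjusted edgeR p of 0.0536. The high-dose value was 0.09 (SE 0.11, interval -0.14 to 0.33).

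Mal, a raft-associated membrane protein that takes part in sorting myelin components, was the member closest to control at the low dose. Its controls in the 1st set had 72.5, 67.3, 68.3 and 61.4 CPM and the low-dose mice 73.7, 54.3 and 65.4 CPM, so the low-dose group spanned the whole control range. Controls of the 2nd set had 87.9, 90.5 and 77.8 CPM and high-dose mice 85.3, 80.2 and 114 CPM. Only replicate 3 of the high-dose group was outside the control range, above it. The log2 fold changes were -0.06 (SE 0.13, interval -0.33 to 0.21) and 0.13 (SE 0.13, interval -0.16 to 0.41).

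Cldn11, the claudin of the tight junctions between myelin layers, was at 53.8, 60.0, 49.0 and 49.5 CPM in the 1st-set controls and at 46.8, 40.6 and 55.8 CPM at the low dose. It was at 65.4, 71.1 and 65.8 CPM in the 2nd-set controls and at 70.4, 59.7 and 91.2 CPM at the high dose. Low-dose replicates 1 and 2 were below every control and replicate 3 within their range, while at the high dose replicate 2 was below and replicate 3 above every control. The log2 fold change was -0.15 (SE 0.14) at the low dose and 0.13 (SE 0.14) at the high dose.

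The second group is formed by membrane proteins of the outer and axon-facing surfaces. Mog, displayed on the outermost surface of the sheath, had 19.6 CPM in controls 1, 2 and 3 of the 1st set and 16.3 CPM in control 4, against 17.1, 14.1 and 18.9 CPM at the low dose. In the 2nd set it had 23.0, 27.4 and 24.0 CPM in the controls and 17.8, 13.8 and 25.9 CPM at the high dose. High-dose replicates 1 and 2 were below every control and replicate 3 lay within the control range. The low-dose log2 fold change was -0.17 (SE 0.18). At the high dose it was -0.37 (SE 0.19, interval -0.77 to 0.03), with an edgeR adjusted p of 0.561.

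Mag, the adhesion molecule of the axon-facing layer, had 73.3, 67.3, 61.3 and 46.6 CPM in the 1st-set controls, the widest spread of the 9 in that group (CV 18.5%). Low-dose mice had 52.4, 47.8 and 53.9 CPM. All 3 lay below controls 1 to 3 and above control 4. In the 2nd set controls had 64.1, 56.1 and 60.5 CPM and high-dose mice 54.3, 44.2 and 64.2 CPM. The log2 fold change was -0.27 (SE 0.14, interval -0.58 to 0.03) at the low dose and -0.15 (SE 0.15, interval -0.48 to 0.18) at the high dose.

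Opalin, a transmembrane protein of central oligodendrocytes, had the fewest reads, 50 to 187 counts per library, and the widest intervals. Its levels were 4.91, 5.84, 6.36 and 5.17 CPM in the 1st-set controls and 3.34, 4.37 and 5.28 CPM at the low dose. They were 6.51, 7.23 and 4.75 CPM in the 2nd-set controls and 4.61, 3.42 and 6.59 CPM at the high dose. At each dose 2 of the 3 exposed libraries were below every control of the set. The log2 fold change was -0.36 (SE 0.24, interval -0.88 to 0.15) at the low dose and -0.34 (SE 0.25, interval -0.86 to 0.19) at the high dose. At this depth a change of either size could not be separated from 0.

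The third group is formed by the enzymes. Cnp, a cyclic nucleotide phosphodiesterase that keeps cytoplasmic channels through the sheath open, had 120, 127, 149 and 119 CPM in the 1st-set controls and 103, 99.2 and 121 CPM at the low dose. It had 158, 165 and 128 CPM in the 2nd-set controls and 145, 130 and 185 CPM at the high dose. Low-dose replicates 1 and 2 were below every control, and in the high-dose group only replicate 3 was outside the control range, above it. The log2 fold change was -0.26 (SE 0.13, interval -0.54 to 0.02) at the low dose and 0.03 (SE 0.14, interval -0.27 to 0.32) at the high dose.

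Ugt8a transfers galactose to ceramide and thereby makes galactosylceramide, the main glycolipid of myelin. The gene lies on chromosome 3 (125865271 to 125938619, minus strand, mm10). It was at 35.9, 33.6, 32.1 and 30.2 CPM in the 1st-set controls and at 19.4, 23.9 and 27.8 CPM at the low dose. Every low-dose library was below every control, which held for 1 of the 9 myelin genes and for 2.91% of all genes. In the 2nd set it was at 50.2, 42.9 and 40.4 CPM in the controls and at 34.0, 23.0 and 41.6 CPM at the high dose. High-dose replicates 1 and 2 were below every control, and replicate 3 lay between them. No member had all high-dose libraries below all controls, which 4.36% of all genes did.

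The log2 fold change of Ugt8a was -0.47 (SE 0.17, 95% interval -0.84 to -0.10, unadjusted p = 0.0158, edgeR adjusted p = 1) at the low dose. At the high dose it was -0.43 (SE 0.18, interval -0.82 to -0.05, unadjusted p = 0.0292, edgeR adjusted p = 0.421). An unadjusted p under 0.05 with a lower level was found for 1 of 9 members at each dose, against 1.15% of all genes in low-dose mice and 3.89% in high-dose mice. Leaving out low-dose replicate 1 raised the unadjusted low-dose edgeR p to 0.082. Leaving out high-dose replicate 2 moved the high-dose log2 fold change to -0.24 (SE 0.15, edgeR adjusted p = 0.738).

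**Figure D2:**
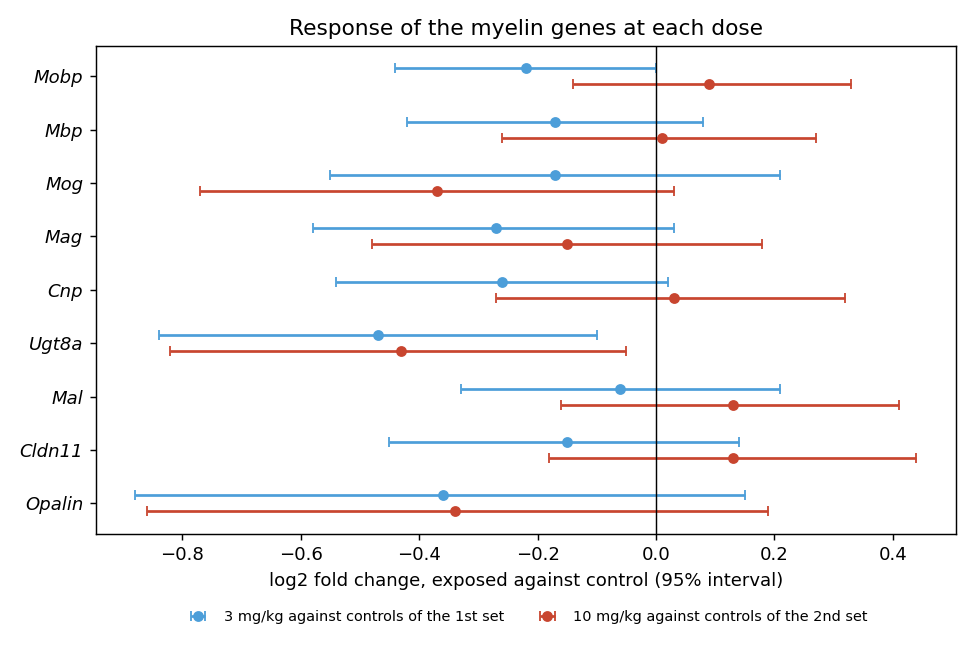
Fitted log2 fold change of each myelin gene with its 95% interval, low dose and high dose each against the controls of their set. All 9 low-dose values are below 0, and the intervals of Ugt8a leave out 0 at both doses before adjustment for all genes tested.

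Fitted as the mean of the 2 dose responses, 8 of the 9 log2 fold changes were negative, with a median of -0.11. None passed, beside 0.492% of all genes. Ugt8a was at -0.45 (SE 0.12, interval -0.72 to -0.19), 73.0% of control, with an unadjusted p of 0.00255 and an edgeR adjusted p of 0.197. Over the alternative fits that gave a mean, the adjusted p of Ugt8a ranged upward from 0.0529, the value of the DESeq2 Wald test. Mog at -0.27 (SE 0.13), Mag at -0.21 (SE 0.10) and Opalin at -0.35 (SE 0.17) followed, with edgeR adjusted p of 0.8, 0.818 and 0.818.

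The difference between the responses, high dose minus low dose, was positive for 8 of 9 genes, and 0 of 9 passed, beside 0.00573% of all genes. The smallest adjusted p was that of Mobp, 0.858 in edgeR, with a difference of 0.31 (SE 0.15, interval -0.01 to 0.64). For Ugt8a the difference was 0.04 (SE 0.25, interval -0.49 to 0.57), which leaves room for a sizeable difference in either direction. This term compares a dose in 1 set with another dose in the other set.

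High-dose replicate 3 stood apart from the rest of its group in these genes. The summed level of the 9 was 1021, 914 and 1247 CPM in high-dose replicates 1, 2 and 3, against 1037, 1052 and 1038 CPM in the controls. Replicate 3 was above all 3 controls for 6 of 9 genes and below them for 0. Replicate 1 was above for 0 and below for 5, and replicate 2 was above for 0 and below for 6. Over all genes tested, the shares above all controls were 21.3%, 20.2% and 24.2% and the shares below were 21.8%, 19.8% and 22.3% in replicates 1, 2 and 3. The coefficient of variation within the high-dose group ran from 8.52% for Mobp to 32.8% for Opalin, and within the controls of the set from 4.71% for Cldn11 to 20.7% for Opalin.

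Without high-dose replicate 3, 8 of 9 high-dose log2 fold changes were negative with a median of -0.16, and still 0 of 9 passed. Mog was then at -0.64 (SE 0.15, edgeR adjusted p = 0.104), Ugt8a at -0.63 (SE 0.18, adjusted p = 0.184) and Opalin at -0.60 (SE 0.25, adjusted p = 0.411). Mobp, at 0.05 (SE 0.12), was the 1 gene left above 0. Mbp moved to -0.16, Cnp to -0.11, Mal to -0.03 and Cldn11 to -0.04. With replicate 3 kept and either other replicate left out, 4 genes were negative, with medians of 0.06 and 0.11. Without replicate 2, Mog was at -0.19 (SE 0.16), Ugt8a at -0.24 (SE 0.15) and Opalin at -0.14 (SE 0.24). Replicate 3 was the highest of its group in every myelin gene, so leaving it out had to lower the values.

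**Figure D3:**
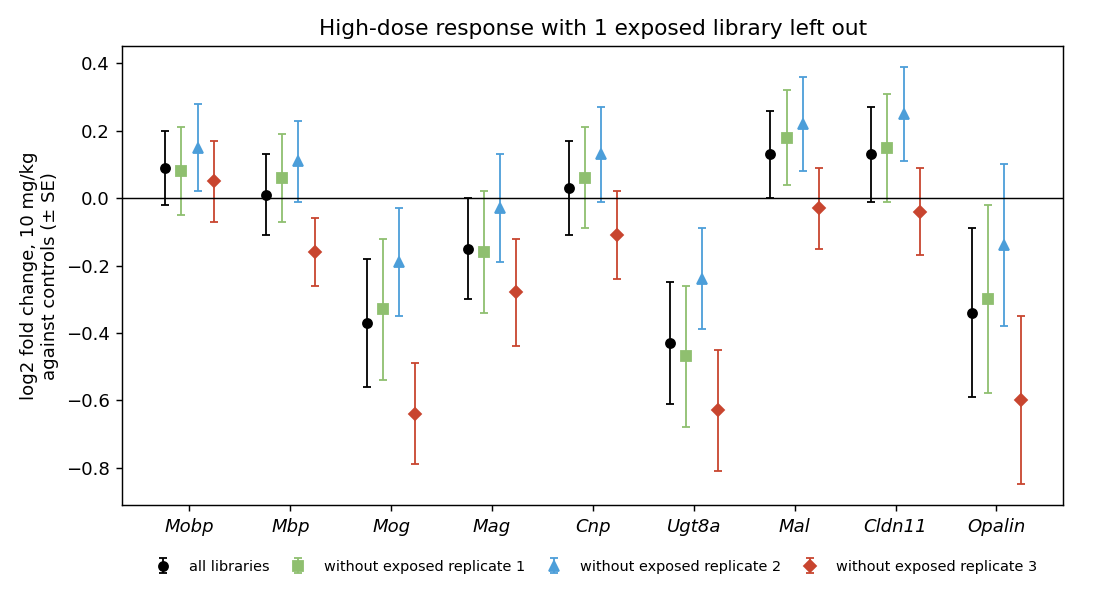
High-dose log2 fold change of each myelin gene with its SE, from all libraries and with 1 high-dose library left out in turn. Without replicate 3, the highest of its group in every gene, 8 of 9 values are below 0. Mog, Ugt8a and Opalin are then at -0.64, -0.63 and -0.60, and at -0.19, -0.24 and -0.14 without replicate 2.

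The same library was high in several other marker lists, among them that of the cortex and striatum, tissue near the bulb. Whether the reads of that list came from such tissue or from the bulb itself was not tested. The 13 markers, none of them at 0, summed to 893 to 1207 CPM in the 2nd-set controls and 1056 to 1448 CPM in the high-dose group. Their mean log2 level relative to the controls was 0.21, 0.06 and 1.04 in high-dose replicates 1, 2 and 3, and 10 of 13 were above every control in replicate 3, against 5 and 4 in replicates 1 and 2. The 5 red blood cell genes were at 0.20, 1.08 and 1.61 on the same scale, with sums of 97.2 to 119 CPM in the controls and 114 to 302 CPM in the high-dose group. In replicate 3, 8 of 10 microglia markers and 6 of 8 astrocyte markers were also above every control, and these lists were at 0.63 and 0.37. The myelin genes were at -0.15, -0.42 and 0.21. In the 1st set, the cortex and striatum markers summed to 917 to 994 CPM in the controls and 900 to 936 CPM at the low dose. Their mean log2 level relative to the controls was 0.03, -0.21 and -0.10 in low-dose replicates 1, 2 and 3, where the myelin genes were at -0.29, -0.37 and -0.06. The red blood cell genes were at 0.75, 0.35 and 0.65 in these libraries. In 1st-set controls 1, 2, 3 and 4 they were at -0.39, -0.64, 0.33 and 0.70, where the myelin genes were at 0.05, 0.07, 0.04 and -0.16. The part of these cells and tissues in the myelin values was not tested.

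Low-dose libraries also differed among themselves. The summed level of the 9 genes was 893, 898, 886 and 768 CPM in the controls (861 ± 62.3, SD, n = 4) and 738, 663 and 833 CPM at the low dose (745 ± 85.3, SD, n = 3). Low-dose replicates 1 and 2 were below every control, and replicate 3 lay above control 4. Leaving out each library of the 1st set in turn kept 8 or 9 of 9 signs negative, with medians from -0.32 to -0.13. The 1 sign that turned was that of Mal, at 0.04 without low-dose replicate 2.

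**Figure D4:**
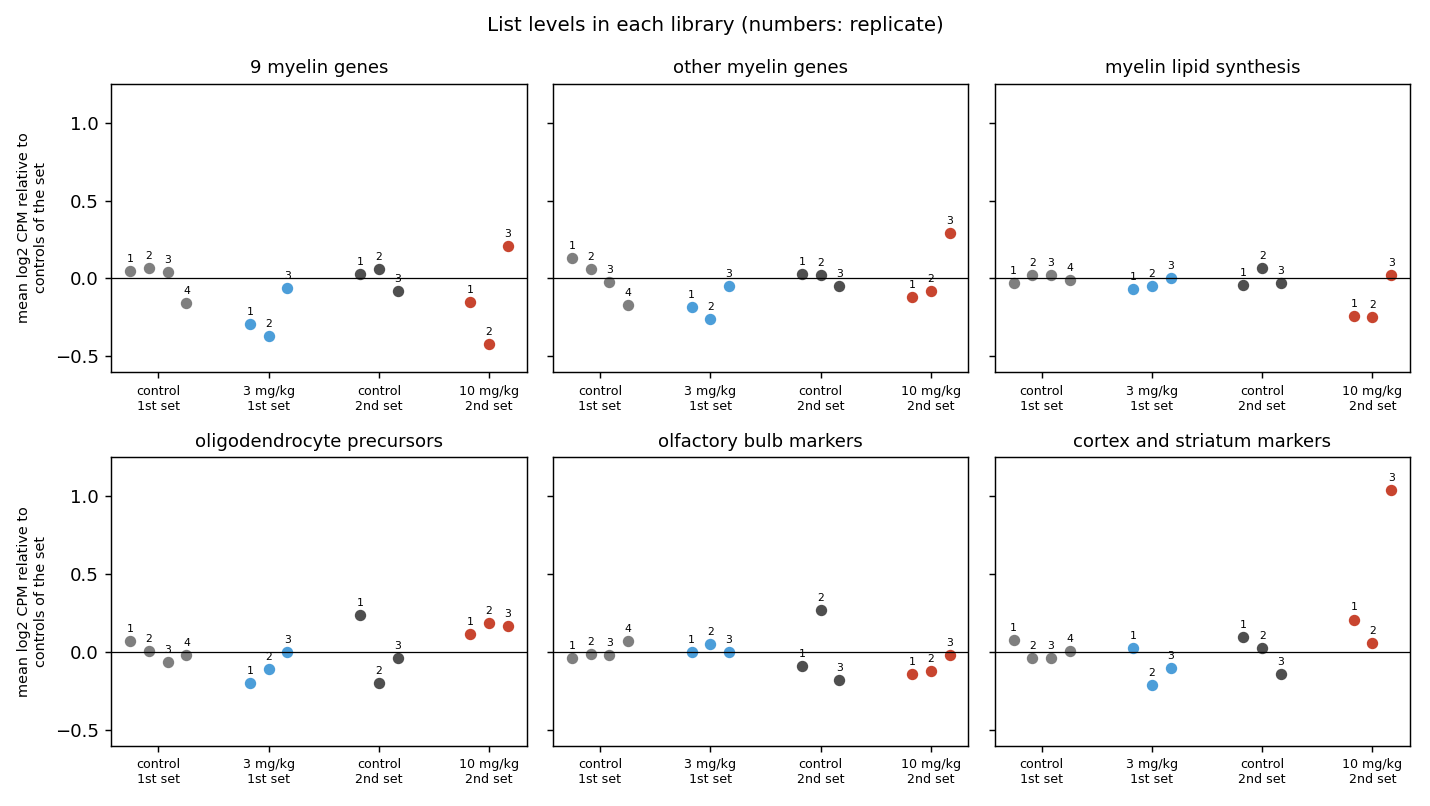
Mean log2 CPM of 6 gene lists in each library, relative to the mean of the controls of its set, with points marked by replicate number. In the panel of the myelin genes the low-dose libraries are at -0.29, -0.37 and -0.06, and high-dose replicate 3 is at 0.21, while in that of the cortex and striatum markers it is at 1.04.

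The controls of the 2 sets were also compared in the myelin genes. Relative to the 1st set, 8 of 9 genes were higher in the 2nd, with a median log2 difference of 0.33, and Mag was at -0.04. The median over all genes was -0.02. All 9 neuron markers examined were also higher, with a median of 0.38 and 5 called, whereas the oligodendrocyte precursor list had a median of -0.40. Mobp passed the test, at 0.33 (SE 0.10, edgeR adjusted p = 0.038), so 1 of 9 was called beside 19.3% of all genes, and 10.5% of all genes were called higher. For 6 of 9 genes, Mobp, Mbp, Mog, Ugt8a, Mal and Cldn11, every control of the 2nd set was above every control of the 1st, as for 15.8% of all genes. Ugt8a was at 0.43 (SE 0.17, adjusted p = 0.0813) and Mog at 0.40 (SE 0.17, adjusted p = 0.113). The call of Mobp ended in 9 of 13 fits that left out 1 library and in 4 of 8 other alternatives. The median of 0.33 between controls is larger in size than the low-dose median of -0.22. Exposed mice were set only against controls of their own set.

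The levels of the 9 genes varied together within groups. Deviations of log2 CPM from the group mean were computed over the 13 libraries, and each gene was set against the mean of the other 8. Pearson's r was highest for Mog, at 0.94, then 0.89 for Cldn11, 0.88 for Mbp, 0.80 for Ugt8a and 0.79 for Cnp. It was 0.74 for Mal, 0.73 for Opalin, 0.71 for Mag and 0.66 for Mobp. Without high-dose replicate 3 it ranged from 0.48 for Mal to 0.87 for Mog. All gene values of 1 library come from the same sample, and the 9 genes share their cell type. The part of either in these correlations was not tested, and the values are given as a description.

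Outside the 9, the 6 genes with deviations most like their mean were Arhgef28 and Emp2 (r = 0.95), Neurod2, B3gat1 and Arnt2 (0.94) and Syt13 (0.93). Emp2 is a small membrane protein, Neurod2 a transcription factor of excitatory forebrain neurons, and Syt13 a synaptotagmin. Without high-dose replicate 3, Neurod2 (0.97) and Emp2 (0.89) were still among the top 6, joined by Ptger3, Kcnip4, Npy2r and B230322F03Rik. Neurod2 was at 1.23, 0.36 and 1.82 log2 units relative to the controls in high-dose replicates 1, 2 and 3 and at -1.04, -1.52 and -0.45 in low-dose replicates 1, 2 and 3.

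The level of Ugt8a was also taken as a share of the summed CPM of the 9 genes within each library. The largest parts of that sum were Mobp, with group means of 33.4 to 37.1%, and Mbp, with 22.4 to 24.1%. The share of Ugt8a is thus read mainly against these 2 genes. The share was 4.02, 3.74, 3.62 and 3.93% in the 1st-set controls and 2.63, 3.60 and 3.34% at the low dose. In the 2nd set it was 4.84, 4.08 and 3.89% in the controls and 3.33, 2.52 and 3.34% at the high dose. Every exposed library was below every control of its set at both doses. Of all genes, taken relative to the same sum, 0.292% did so at the low dose, 2.99% at the high dose and 0.0344% at both. The sum itself was lower in 2 of 3 low-dose libraries, which raises every other gene on this scale. By CPM alone the high-dose group of Ugt8a overlapped with its controls. The nearest pair in the 1st set was 3.60% exposed and 3.62% control. The share was examined after the values of Ugt8a had been seen and is a description without a test. Mog and Mag had non-overlapping lower shares at the high dose. Mog was at 1.51 to 2.08% of the sum against 2.22 to 2.60% in the controls, and Mag at 4.84 to 5.32% against 5.34 to 6.19%, a gap within the last digits. Both overlapped with controls in the low-dose group.

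**Figure D5:**
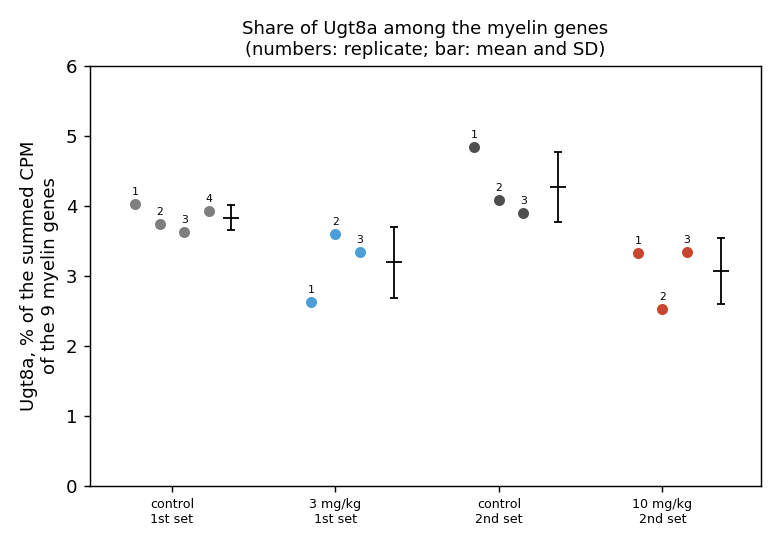
Ugt8a as a percentage of the summed CPM of the 9 myelin genes in each library, on an axis from 0, with the group mean and SD as bars. Exposed libraries lie at 2.52 to 3.60% and controls at 3.62 to 4.84%.

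Other genes of the oligodendrocyte lineage were taken from lists grouped by function. Like the myelin genes, these lists were chosen with earlier results of these data known, so they are no independent check. Of 38 further myelin and mature oligodendrocyte genes, 36 could be tested. In low-dose mice 31 of 36 were negative with a median of -0.16, beside 49.0% of all genes. An unadjusted edgeR p under 0.05 with a lower level was found for 7 of 36, beside 1.15% of all genes, and 0 passed. Those with the smallest p were Tmem88b at -0.28 (SE 0.09) and Trf, the iron carrier transferrin that oligodendrocytes make, at -0.34 (SE 0.11), both with an edgeR adjusted p of 1. At the high dose 16 of 36 were negative, beside 52.8% of all genes, with a median of 0.04, and 0 passed. Apod, a lipid-binding apolipoprotein, was at 0.54 (SE 0.17, edgeR adjusted p = 0.226) and Prr5l at -0.57 (SE 0.19, adjusted p = 0.254). In high-dose replicate 3, 19 of 36 were above every control and 1 below, while replicate 1 had 2 above and 12 below and replicate 2 had 7 above and 12 below.

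Lipid synthesis genes, 17 in number, covered cholesterol and sphingolipid steps that supply the sheath. In low-dose mice their median was 0.00, with 8 of 17 negative. At the high dose 15 of 17 were negative, beside 52.8% of all genes, with a median of -0.17, and 0 passed. Cyp51, of the sterol pathway, was at -0.35 (SE 0.13, edgeR adjusted p = 0.348). By library the list stood at -0.24, -0.25 and 0.02 relative to the controls in high-dose replicates 1, 2 and 3, with 2 of 3 libraries below all controls of the set. Fa2h, which hydroxylates the fatty acid of galactosylceramide and so acts beside Ugt8a, was at -0.30 (SE 0.21) and -0.21 (SE 0.22) at the low and high dose.

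Among 13 transcription factors of the lineage, 0 passed at either dose, with medians of -0.06 and 0.03. Olig2, needed for the lineage, was at -0.27 (SE 0.17) at the low dose and 0.13 (SE 0.17) at the high dose. Nkx6-2 was at -0.42 (SE 0.28) and -0.52 (SE 0.27), Tcf7l2 at -0.34 (SE 0.19) and -0.16 (SE 0.20), and Yy1 at 0.04 (SE 0.08) and 0.09 (SE 0.08). None of these 4 had an unadjusted p under 0.05 at either dose. Nkx6-2, at 2.70 and 4.32 CPM in the controls of the 1st and 2nd set, had few reads.

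Newly formed oligodendrocytes and their precursors were followed with 15 and 11 genes, of which 14 and 11 could be tested, and 0 passed at either dose. The newly formed list had medians of -0.07 and 0.03 and the precursor list of -0.12 and 0.17 at the low and high dose. Gpr17, a receptor that marks cells about to myelinate, was at -0.48 (SE 0.16, unadjusted p = 0.0118, edgeR adjusted p = 1) at the low dose and at 0.41 (SE 0.17, unadjusted p = 0.0333, adjusted p = 0.443) at the high dose. Bcas1, of early myelinating cells, was at -0.27 (SE 0.10) and 0.19 (SE 0.11). Neu4, a sialidase, was at -0.09 (SE 0.14) and 0.39 (SE 0.14), and Rnf122 at -0.05 (SE 0.16) and -0.42 (SE 0.17). In the precursor list Xylt1, which starts glycosaminoglycan chains, was at -0.38 (SE 0.15) and 0.45 (SE 0.16), Cacng4 at -0.13 (SE 0.08) and -0.11 (SE 0.08), and Matn4 at -0.25 (SE 0.16) and 0.37 (SE 0.18). Between the sets' controls the precursor genes were lower in the 2nd set, with 7 of 11 called lower, beside 8.74% of all genes, and a median of -0.40. Of the endothelial genes 3 of 6 and of the ensheathing glia genes 3 of 8 were called lower there too.

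Markers of cells that could add to or dilute myelin RNA were measured beside these lists. Of 5 peripheral myelin genes, Pmp2 was at 0 in every library and 4 could be tested. Of these 4, 0 passed at either dose. Of 10 microglia markers 2 passed at the high dose, C1qa at 0.84 (SE 0.17, edgeR adjusted p = 0.036) and C1qb at 0.76 (SE 0.16, adjusted p = 0.0431), both of the complement system. The list summed to 307 to 381 CPM in the 2nd-set controls and 418 to 508 CPM in the high-dose group, none at 0. In the 1st set it summed to 308 to 347 CPM in the controls and 339 to 385 CPM at the low dose. None of the olfactory ensheathing glia, astrocyte, neuron, olfactory bulb, cortex and striatum, red blood cell or endothelial genes listed passed at either dose. Their part in the myelin values was not tested.

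Some of these counts can hold reads of another gene. Mbp, Cnp and Mog each overlap a gene on the opposite strand in the GENCODE M21 annotation, namely Rpl21-ps8, Dnajc7 and Gm22388, and Mobp shares its strand with Gm38642. The libraries were strand-specific, but no source used here names the strand setting of the counting. Ugt8a, Mag, Mal, Cldn11 and Opalin overlapped no other gene.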

How the data were processed

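RNA from 13 olfactory bulb samples was made into strand-specific total RNA libraries, per the labels' protocols. The submitters' processing notes name HISAT2 and mm10, without versions. The authors deposited a raw count and an FPKM value per gene and library. The sources used here do not name the counting program, annotation release or gene lengths. All sample columns were mapped, so 0 were left out.

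Genes were filtered with filterByExpr and scaled by TMM in edgeR 4.0.16 under R 4.3.3, and 1 quasi-likelihood fit over the 4 groups (9 residual degrees of freedom) gave every contrast. CPM uses TMM-scaled totals. An SE is the log2 fold change divided by the root of its F statistic, and intervals are at 95%. Called means a Benjamini-Hochberg adjusted p under 0.05 over 17467 genes. Log2 CPM for list levels used a prior count of 2. No pair of replicates agreed within sampling noise.

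The myelin genes and all lists were chosen with earlier results of these data known. All 9 myelin genes are reported. From every other list, the rule took the 2 genes with the smallest p at each dose, whether or not they passed, and values are printed for the lists close to the myelin genes. Some genes the rule took are not reported here. The 6 genes most like the myelin genes had a mean of at least 1 CPM. Alternatives were DESeq2 1.42.0 (size factors and Wald test), upper-quartile factors, limma 3.58.1 (voom, and trend on log2(FPKM + 1) or log2(FPKM + 0.1)), no filter, at least 1 CPM in every library, separate fits per set, a replicate block and leaving out each library. Leaving high-dose replicate 3 out of the likeness measure was added after seeing the data.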

Additional observations from a re-analysis of the deposited data

Results flagged for a closer look

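In the controls of the 1st set, replicate 4 was far below the other 3 in some myelin genes. Its gap to the nearest control, divided by the range of the 4, was 0.837 for Mobp (256 CPM against 299 to 307), 0.979 for Mog (16.3 against 19.6 CPM) and 0.904 for the summed level of the 9 genes (768 against 886 to 898 CPM). The critical value for 4 samples is 0.829. Chance flags about 1 in 20 groups, and the 10 quantities examined are not independent of each other. Without this control the low-dose median log2 fold change of the 9 genes was -0.28, 9 of 9 were negative and 0 of 9 passed.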

How the results depend on the processing

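At the low dose, at the high dose and for their mean and difference, 0 of 9 myelin genes were called in every one of the 23 alternatives that gave the contrast. By tool, the members with an unadjusted p under 0.05 at the low and the high dose numbered 1 and 1 in edgeR, 1 and 1 with DESeq2's Wald test and 2 and 2 with limma-voom. Over all genes, 0 were called at the low dose (edgeR, 429 at an unadjusted p under 0.05), against 19 with DESeq2's Wald test, 2 with limma-voom, 2 with limma on log2(FPKM + 1), 9 with separate fits per set, and 0 to 2 with 1 library left out. At the high dose 112 were called, against 291 with DESeq2's Wald test, 69 with at least 1 CPM in every library, 4 with separate fits, and 21 (without 2nd-set control 3) to 138 (without 2nd-set control 2) with 1 library left out. It was 65 without high-dose replicate 2 and 70 without 1st-set control 2.

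Replicate numbers did not pair the samples. Correlations of same-numbered deviations were 0.01, 0.08 and 0.01 in the 1st set and 0.14, -0.19 and -0.40 in the 2nd, and 1 of 6 samples correlated best with its own number. With the number as a replicate block, 5 genes were called at the high dose and Mbp was at -0.01.

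The high-dose sign of Mbp, 0.01, also turned with limma-voom (-0.01), no filter (-0.00) and limma on log2(FPKM + 1) (-0.00) or log2(FPKM + 0.1) (-0.01). With 1 library left out, high-dose values ran from -0.16 to 0.11 for Mbp, -0.11 to 0.13 for Cnp, -0.03 to 0.22 for Mal and -0.04 to 0.25 for Cldn11, and the low-dose value of Mal from -0.17 to 0.04. Between controls, Mag was at 0.01 with no filter and at -0.16 to 0.04 with 1 library left out. The 1 member called there became 0 with upper-quartile factors, 0 with at least 1 CPM in every library and 0 with limma on either FPKM scale, 3 with no filter, and 0 to 4 with 1 library left out, the 4 without high-dose replicate 3. The cause of these changes was not tested. Separate fits cannot give the mean, the difference or the contrast of controls, and the block cannot give the last. With 3 or 4 samples a group, standard errors of 0.10 to 0.25 limit what could be seen at either dose.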
